A study of Mus musculus with 16 samples.

Results

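The genes described are 10 mouse genes that act in, or are turned on by, BMP and TGF-beta signalling: the inhibitors of DNA binding Id1, Id2, Id3 and Id4, the inhibitory Smads Smad6 and Smad7, the homeobox genes Msx1 and Msx2, the pseudoreceptor gene Bambi and the ligand gene Bmp4. They were taken by gene symbol from 55367 genes counted in 16 RNA-seq libraries, and 9 of the 10 were among the 19509 genes that passed edgeR's filter on low counts. Msx2 did not pass. Msx1 had been chosen by its higher counts with sulforaphane (SFN) in isosmotic cells, so its values in every comparison with wild-type isosmotic libraries are given as a description, with no test.

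In the BMP and TGF-beta pathway, secreted dimers of the BMP, TGF-beta and activin type bring together type I and type II receptor kinases, and the type I receptor phosphorylates receptor Smads that enter the nucleus with Smad4. BMP receptors act on Smad1, Smad5 and Smad9, and TGF-beta and activin receptors act on Smad2 and Smad3. The Id genes are classic direct targets of the BMP branch, and their proteins bind E proteins such as Tcf3, Tcf4 and Tcf12 and keep them off DNA. Smad6 and Smad7 are targets that feed back on the receptors, Bambi is a receptor-like protein without a kinase domain that blocks signalling, and Msx1 and Msx2 are transcription factors often induced by BMP ligands. In the kidney, BMP ligands take part in the branching of the ureteric bud, from which the collecting duct arises, and TGF-beta is known for its part in fibrosis.

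The cells were mIMCD3, derived from the inner medullary collecting duct of the mouse, either wild type (WT) or Nrf2-/-, the latter a stable line made with CRISPR/Cas9 and drug selection. All cells received a 5 h pretreatment with the solvent DMSO or with 10 µM SFN, an activator of the transcription factor Nrf2, and were then left isosmotic or placed in hyperosmotic medium of 600 mOsm for 1 h or 6 h. There were 8 groups of 2 libraries: WT with DMSO and WT with SFN, each isosmotic, at 1 h and at 6 h, and Nrf2-/- with SFN, isosmotic and at 1 h. Nrf2-/- cells with DMSO were not analysed here, so the effect of the genotype and any difference between the lines cannot be told apart, and the SFN response of Nrf2-/- cells cannot be read. The labels do not say that the isosmotic cells had a change of medium or the extra hours, so hyperosmolality, the change of medium and time cannot be told apart. The study calls the libraries of a group biological replicates. The labels do not say whether they came from separate cultures. The p-values rest on the spread between libraries within groups, which 1 fit of all 16 libraries shared over the 8 groups. They do not measure the spread of the compared libraries alone, and the Nrf2-/- 1 h pair, which differed most, enters that fit. Total counts ranged from 34484296 to 50774875 per library. Levels are given as CPM (counts scaled to library size) after TMM scaling, differences as log2 fold changes from edgeR's quasi-likelihood test, and a gene was called when its p adjusted over all 19509 genes was under 0.05. In bulk RNA, fewer cells of a type and less RNA per cell cannot be told apart.

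The labels were checked on Nrf2 and its targets. Nfe2l2, which encodes Nrf2, stood at 72.5 ± 7.83 CPM (SD, n = 2) in WT and 11.4 ± 0.361 CPM in Nrf2-/- isosmotic cells with SFN. Nqo1, a quinone reductase and Nrf2 target, was at 7.28 CPM in the WT and had 0 counts in both Nrf2-/- isosmotic libraries. At 1 h the Nrf2-/- libraries held 9 and 4 counts of Nqo1, called higher than before the stress (adjusted p = 0.0120), against 212 and 246 in the WT with SFN. Small counts in the Nrf2-/- 1 h libraries were also seen for Id4 (2 and 9), Bmp6 (12 and 8) and Bmp7 (0 and 8), which had 0 to 2 counts in the Nrf2-/- isosmotic libraries. Srxn1, which encodes sulfiredoxin, was at 206 against 21.7 CPM, and Hmox1, heme oxygenase 1, at 318 against 43.6 CPM. The cystine transporter gene Slc7a11 went the other way, with 39.4 CPM in WT and 70.6 CPM in Nrf2-/- cells. In WT isosmotic cells SFN raised Srxn1, Hmox1, Nqo1 and Slc7a11 by 1.33, 2.03, 1.43 and 2.39 on the log2 scale. Collecting duct markers were only partly present: Hoxb7 and Tfcp2l1 stood at 33.9 and 27.6 CPM in WT DMSO isosmotic cells, while Aqp2, Avpr2 and Scnn1b, which mark the mature principal cell, had 0 counts there. The Nrf2-/- 1 h libraries differed from each other more than any other pair, with a biological coefficient of variation of 0.346 against 0.0395 to 0.128 in the other 7 groups.

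The genes lie apart in the genome (GRCm38, GENCODE M21). Id1 is at chromosome 2, 152736251 to 152737410, Id2 at chromosome 12, 25093799 to 25097140, Id3 at chromosome 4, 136143497 to 136145755, Id4 at chromosome 13, 48261228 to 48266026, Smad6 at chromosome 9, 63953076 to 64022059, Msx1 at chromosome 5, 37820485 to 37824583, and Bmp4 at chromosome 14, 46383520 to 46390669. Id4 overlaps the antisense genes A330033J07Rik and Gm49291, and Bmp4 overlaps Gm15217 and Gm15222 on the other strand. Whether the counting used strand is not given in the sources used here, so reads of Id4 and Bmp4 and of these partners may be mixed.

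Promoter windows of 250 bases before the start were matched in RefSeq (GRCm38.p6) for 7 of the 10 genes. The window of Msx2, a gene at or near 0 counts, was not used, the other 6 were searched for motifs, and 3 are shown because their genes carry separate patterns: Msx1, the gene chosen by its higher level with SFN in isosmotic cells and not called for SFN at 1 h or 6 h, Id4, which was nearly silent in Nrf2-/- cells, and Smad6, which fell at 6 h together with Id3. The windows are Msx1 chr5:37824586-37824835 on the minus strand, Id4 chr13:48260866-48261115 on the plus strand and Smad6 chr9:64022060-64022309 on the minus strand. None of them holds an annotated exon. Capitals mark a match to 1 of the 4 motifs searched.
Msx1: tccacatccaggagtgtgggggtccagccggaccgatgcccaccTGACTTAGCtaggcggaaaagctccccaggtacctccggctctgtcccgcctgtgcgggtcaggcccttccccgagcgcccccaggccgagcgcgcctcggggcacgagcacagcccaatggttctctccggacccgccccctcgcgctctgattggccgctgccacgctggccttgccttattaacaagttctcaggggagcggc
Id4: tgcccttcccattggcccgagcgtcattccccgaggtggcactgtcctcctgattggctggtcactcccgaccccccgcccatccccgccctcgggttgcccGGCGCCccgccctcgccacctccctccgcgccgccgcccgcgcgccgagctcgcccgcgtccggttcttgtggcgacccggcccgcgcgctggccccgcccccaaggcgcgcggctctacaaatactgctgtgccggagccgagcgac
Smad6: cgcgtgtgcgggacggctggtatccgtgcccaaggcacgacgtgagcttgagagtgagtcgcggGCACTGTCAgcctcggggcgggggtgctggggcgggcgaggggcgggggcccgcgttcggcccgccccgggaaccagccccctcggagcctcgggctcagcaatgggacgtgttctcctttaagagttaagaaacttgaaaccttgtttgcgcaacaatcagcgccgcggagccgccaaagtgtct
The motifs, searched on both strands, were GGCGCC, a GC-rich element of BMP-responsive genes, CAGAC, a Smad-binding core, TGACNNNGC, the core of the antioxidant response element that Nrf2 binds, and TGGAAA, the core bound by the tonicity factor NFAT5. None of the 4 contains another. Msx1 held TGACNNNGC with its first base 206 bases before the start, Smad6 held it on the opposite strand at 186 bases, and Id4 held GGCGCC at 148 bases. Id2 also held GGCGCC, Id3 held CAGAC at 2 places, and the Bmp4 window held none of the 4. By the GENCODE annotation the Id3 window lies wholly in exons (250 of 250 bases) and the Id2 window in part (161 bases), so these 2 are not purely upstream sequence. Among 32851 RefSeq promoters of this length, 9.59% held GGCGCC, 42.2% held CAGAC, 10.2% held TGACNNNGC and 18.6% held TGGAAA. These matches are descriptions of the letters and not of binding.

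On a scale corrected for exon length (FPKM), the 3 abundant Id genes led in WT DMSO isosmotic cells, with 219 ± 19.8 for Id1, 110 ± 7.14 for Id2 and 98.9 ± 10.6 for Id3 (SD, n = 2). The Id2 and Id3 levels differed by little more than their spread. Smad7 followed with 28.7, Smad6 with 11.96 and Id4 with 5.45 FPKM. The developmental genes were scarce, with 0.462 ± 0.264 FPKM for Bmp4, 0.245 ± 0.0339 for Msx1 and 0.0624 ± 0.0351 for Bambi, and Bmp4 and Msx1 did not differ beyond their spread. Msx2 had 2 counts in WT DMSO 6 h replicate 1, 2 counts in WT SFN 6 h replicate 1 and 0 counts in the other libraries, where 0 counts allow at most 0.0556 to 0.0935 CPM (3 counts, counting error only). The order changed with time: at 6 h with DMSO Id2 led with 186 FPKM, ahead of Id1 with 79.0, Smad7 with 32.6 and Id3 with 23.8.

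**Figure D1:**
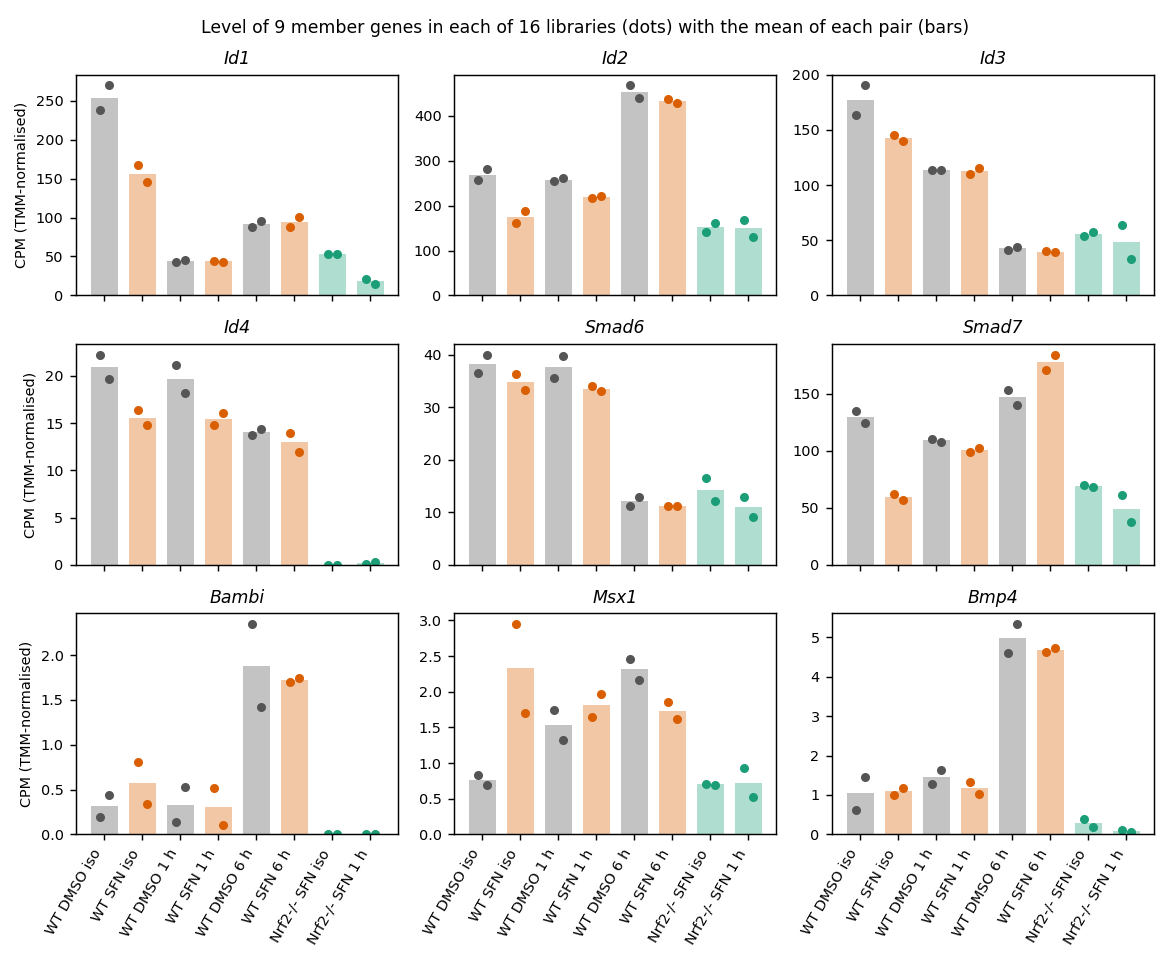
Level of 9 of the genes in each of 16 libraries, in CPM on a linear axis that starts at 0. Dots are libraries, bars are means of the 2 libraries of a group, grey marks WT with DMSO, orange WT with SFN and green Nrf2-/- with SFN. Id1 was highest in WT DMSO isosmotic cells, Id3 and Smad6 were low at 6 h and in Nrf2-/- cells, and Id4 was at or near 0 in the Nrf2-/- libraries.

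The first question was what 1 h of hyperosmotic stress did to these genes. Id1, an inhibitor of E proteins and the best known BMP target of the family, was called lower in all 3 settings. With DMSO it stood at 238 and 270 CPM in the isosmotic libraries and at 42.7 and 45.1 CPM at 1 h. The 1 h libraries lay far below the isosmotic ones, and the fall was 5.78-fold (log2 fold change −2.53, SE 0.14, adjusted p = 1.42e-07). With SFN, Id1 was at 167 and 146 CPM before and at 44.8 and 43.4 CPM after 1 h (log2 −1.83, SE 0.14, adjusted p = 2.50e-06). In Nrf2-/- cells with SFN it went from 53.3 and 53.0 CPM to 21.5 and 15.3 CPM (log2 −1.53, SE 0.14, adjusted p = 1.88e-05), a call that was lost when only the 4 libraries compared were fitted (adjusted p = 0.0653). Thus the lowest isosmotic library was above the highest 1 h library in each setting. The WT levels at 1 h met at about the same value from different starting levels, 43.9 ± 1.69 CPM with DMSO and 44.1 ± 0.983 CPM with SFN.

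With DMSO, 1 of the 8 genes tested at 1 h was called, which is close to the share of all genes. Of all 19509 genes 11.2% were called, 7.1% higher and 4.11% lower. Id3, which like Id1 encodes an E protein inhibitor, was at 164 and 191 CPM before and 113 and 114 CPM after 1 h, without overlap, and missed the threshold (log2 −0.64, SE 0.20, adjusted p = 0.0599). Fitting the 12 WT libraries alone called 3 genes with DMSO, Id1, Id3 and Smad7, and 22.9% of all genes. With SFN, 2 of 8 were called against 9.52% of all genes (5.94% higher and 3.58% lower), Id1 lower and Smad7 higher, and 4 in a fit of the 12 WT libraries, which added Id2 and Id3 and called 18.3% of all genes. Smad7, an inhibitory Smad that both branches induce, was at 62.1 and 57.1 CPM in isosmotic cells with SFN and at 98.7 and 103 CPM at 1 h (log2 0.76, SE 0.16, adjusted p = 0.00758). Leaving out WT SFN 1 h replicate 2 or WT SFN isosmotic replicate 2 ended that call (adjusted p = 0.0576 and 0.0904). In Nrf2-/- cells 2 of 9 were called, against 7.17% of all genes (4.36% higher and 2.81% lower). Bambi was among the 9 but had 0 counts in all Nrf2-/- libraries, so it could not be called. Id1 was called lower, and Id4 higher, whose counts were 0 and 0 before and 2 and 9 after 1 h, next to the floor of 3 counts. That is at least 1.91-fold higher, a bound that rests on 1 h replicate 2, since the 2 counts of replicate 1 lie below the floor. The Id4 call was lost without either Nrf2-/- isosmotic replicate or Nrf2-/- 1 h replicate 2. Without Nrf2-/- 1 h replicate 1 the number called in Nrf2-/- cells was 5 beside 23.9% of all genes, and without replicate 2 it was 1 beside 21.6%. The median log2 fold change of the tested genes at 1 h was −0.07 with DMSO and −0.03 with SFN, beside 0.00 and 0.02 over all genes.

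Msx1 stood at 0.834 and 0.685 CPM in WT DMSO isosmotic cells and at 1.74 and 1.32 CPM at 1 h, from 35 and 31 and from 77 and 50 counts. Smad6, a feedback inhibitor of the BMP branch, was level at this time, with 38.3 ± 2.43 CPM before and 37.7 ± 2.92 CPM at 1 h with DMSO (95% interval of the log2 difference −0.38 to 0.33). Id2 was at 269 ± 17.4 CPM and 258 ± 4.15 CPM (interval −0.32 to 0.20). In Nrf2-/- cells Msx1 was at 0.711 and 0.698 CPM before and 0.935 and 0.519 CPM at 1 h, with overlapping libraries (log2 0.05, SE 0.40, adjusted p = 0.991).

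By 6 h the genes had split into those that fell, those that rose and those that came back. With DMSO, 7 of the 8 genes tested were called, 3 higher and 4 lower, and of all genes 45.9% were called, 23.9% higher and 22.0% lower. With SFN, 6 of 8 were called, 3 higher and 3 lower, with 47.6% of all genes called, 24.7% higher and 22.9% lower. The medians over the tested genes, −0.19 with DMSO and 0.52 with SFN on the log2 scale, stood beside 0.05 and 0.09 over all genes.

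Id3 and Smad6 fell between 1 h and 6 h. Id3 was at 40.9 and 44.3 CPM at 6 h with DMSO and at 40.2 and 39.1 CPM with SFN, below all 8 earlier WT libraries. Against isosmotic cells its log2 fold change was −2.06 (SE 0.21, adjusted p = 3.20e-06) with DMSO and −1.85 (SE 0.21, adjusted p = 7.63e-06) with SFN. Smad6 was at 36.6 and 40.1 CPM in isosmotic cells, 35.6 and 39.7 CPM at 1 h and 11.3 and 12.9 CPM at 6 h with DMSO. That is a 3.16-fold fall against isosmotic cells (log2 −1.66, SE 0.17, adjusted p = 2.67e-06), and with SFN it was 3.10-fold. Between 1 h and 6 h with DMSO, Id3 changed by −1.42 and Smad6 by −1.64 on the log2 scale. Both genes thus had most of their change after the first hour, whereas Id1 had its low point at 1 h.

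Id1 came back in part. It rose from 42.7 and 45.1 CPM at 1 h to 88.3 and 95.04 CPM at 6 h with DMSO (log2 1.06, SE 0.14, adjusted p = 2.16e-05), and to 88.1 and 101 CPM with SFN. At 6 h it was still 2.77-fold below isosmotic cells with DMSO (log2 −1.47, adjusted p = 1.01e-06) and 1.66-fold below with SFN (log2 −0.73, adjusted p = 0.000478). Id4, the Id gene with the lowest level, was at 22.3 and 19.7 CPM before and 13.8 and 14.4 CPM at 6 h with DMSO (log2 −0.57, SE 0.19, adjusted p = 0.0244), a call that was lost with RLE size factors (adjusted p = 0.0544) and without any of 3 libraries. With SFN it was at 16.4 and 14.8 CPM before and 13.98 and 11.99 CPM at 6 h (adjusted p = 0.280).

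With DMSO, Id2 rose at 6 h while its 3 relatives were called lower. It was at 256 and 281 CPM in isosmotic cells, 255 and 261 CPM at 1 h and 469 and 439 CPM at 6 h with DMSO. The 6 h libraries stood above all others (log2 0.76 against isosmotic, SE 0.12, adjusted p = 0.000148). With SFN it went from 161 and 188 CPM to 437 and 429 CPM (log2 1.31, SE 0.12, adjusted p = 9.58e-07). Bmp4, a BMP ligand, rose from 0.619 and 1.46 CPM to 4.61 and 5.34 CPM with DMSO (4.79-fold, log2 2.25, SE 0.38, adjusted p = 0.000234, and log2 2.99 without DMSO isosmotic replicate 2) and from 0.992 and 1.19 CPM to 4.64 and 4.73 CPM with SFN (log2 2.10, SE 0.38, adjusted p = 0.000388). These Bmp4 values rest on 26 to 173 counts per WT library. Bambi rose from 8 and 20 counts in isosmotic cells to 81 and 46 at 6 h with DMSO (log2 2.55, SE 0.77, adjusted p = 0.0160), a call lost without DMSO isosmotic replicate 1 or DMSO 6 h replicate 1, and log2 3.28 without DMSO isosmotic replicate 2. With SFN it had 30 and 18 counts before and 58 and 56 at 6 h (log2 1.62, SE 0.73, adjusted p = 0.0879).

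Smad7 with DMSO was at 135 and 124 CPM in isosmotic cells and 154 and 141 CPM at 6 h (log2 0.18, SE 0.16, adjusted p = 0.377), while with SFN it rose from 62.1 and 57.1 CPM to 171 and 185 CPM (2.99-fold, log2 1.58, SE 0.16, adjusted p = 2.34e-06). Msx1 was at 2.46 and 2.16 CPM at 6 h with DMSO, above the isosmotic 0.834 and 0.685 CPM. With SFN it was at 1.85 and 1.62 CPM at 6 h, against 2.95 and 1.70 CPM before, with overlapping libraries. From 1 h to 6 h, a comparison that did not use the isosmotic libraries, Msx1 was not called with DMSO (log2 0.59, SE 0.35, adjusted p = 0.195) or with SFN (log2 −0.06, SE 0.35, adjusted p = 0.912).

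Between 1 h and 6 h, 7 of 9 genes were called with DMSO and 7 of 9 with SFN, 5 higher and 2 lower each time, beside 42.4% of all genes with DMSO (20.4% higher and 22.0% lower) and 42.6% with SFN (20.9% higher and 21.7% lower). In both settings Id1, Id2, Bmp4, Bambi and Smad7 were higher and Id3 and Smad6 lower. The Smad7 difference with DMSO was the smallest of these (log2 0.43, SE 0.16, adjusted p = 0.0418), and it lost its call in 14 of 16 runs that left out a library. The Bambi call with DMSO was lost without replicate 1 of 1 h (log2 1.82, adjusted p = 0.155) or of 6 h (adjusted p = 0.118). With SFN it was lost without 1 h replicate 2 (log2 1.71, adjusted p = 0.163) or either 6 h replicate (adjusted p = 0.0680 and 0.0711). Without the other 1 h replicate the log2 fold change of Bambi was 3.76 with DMSO and 4.06 with SFN.

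**Figure D2:**
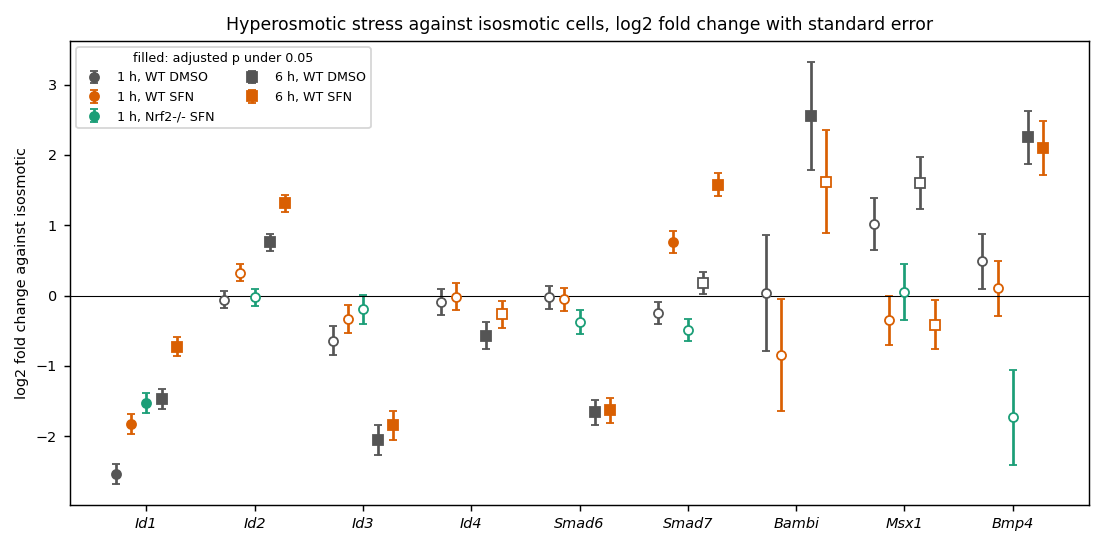
Log2 fold change of 9 genes under hyperosmotic stress against isosmotic cells of the same genotype and pretreatment, with standard errors as bars. Circles are 1 h and squares 6 h, and filled symbols were called. Msx1 is drawn open without a test in WT cells, and the Nrf2-/- values of Id4 and Bambi, at or near 0 counts, are not drawn. Id1 is below 0 in all settings, Id3 and Smad6 drop at 6 h, and Id2 and Bmp4 are above 0 at 6 h.

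The second question was what SFN did before and during the stress. In WT isosmotic cells 3 of the 8 genes tested were called, all lower, and of all genes 2.84% were called, 1.76% lower. Smad7 fell from 135 and 124 CPM with DMSO to 62.1 and 57.1 CPM with SFN, a 2.18-fold fall (log2 −1.12, SE 0.16, adjusted p = 0.00105). Id1 fell from 238 and 270 CPM to 167 and 146 CPM (1.62-fold, log2 −0.70, SE 0.13, adjusted p = 0.0100). Id2 fell from 256 and 281 CPM to 161 and 188 CPM (1.54-fold, log2 −0.62, SE 0.12, adjusted p = 0.0112). In each of the 3 genes both SFN libraries lay below both DMSO libraries. The Id1 and Id2 calls were lost without DMSO isosmotic replicate 2 (adjusted p = 0.144 and 0.147), the Id1 call also without SFN isosmotic replicate 2 and the Id2 call also without SFN isosmotic replicate 1. The Smad7 call held in each such run. The summed epithelial marker list of 6 genes was also lower with SFN in isosmotic cells, at 2207 and 1968 against 2954 and 3341 CPM, with Krt8, its most abundant gene, at 836 and 740 against 996 and 1109 CPM. At 1 h the sums were 2756 and 2739 CPM with SFN and 2687 and 2766 CPM with DMSO. The part of these markers in the SFN results was not tested.

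Id3, Id4 and Smad6 were also lower in both SFN libraries, by −0.31, −0.43 and −0.14 on the log2 scale, but missed the threshold (adjusted p = 0.493, 0.295 and 0.723). Fitting the 12 WT libraries alone called 5 genes, with Id3 and Id4 besides the 3 above, and 15.2% of all genes, 1570 higher and 1305 lower. Msx1 went the other way and was the gene chosen for it: its counts were 35 and 31 without SFN and 110 and 92 with it, or 0.834 and 0.685 against 2.95 and 1.70 CPM, 3.06-fold higher. Both SFN libraries lay above both DMSO libraries, and they also lay well apart from each other. Bmp4 was at 1.04 ± 0.594 and 1.09 ± 0.137 CPM, with a 95% interval of the log2 difference of −0.77 to 0.91.

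Under hyperosmotic stress no SFN effect on these genes was detected with edgeR's quasi-likelihood test over all 16 libraries. At 1 h, 0 of 9 genes were called beside 0.0923% of all genes, and DESeq2 called 0. An unadjusted p under 0.05 was reached by 0 of 9, beside 669 of all 19509 genes. A fit of the 4 libraries compared called 2, Id2 and Id4, both with SFN libraries below DMSO libraries, and 4.95% of all genes. At 6 h edgeR and DESeq2 called 0 of 9, and edgeR called 0.041% of all genes. Again 0 of 9 had an unadjusted p under 0.05, beside 718 of all genes. Of the Nrf2 targets used as label checks, edgeR called only Srxn1 for SFN at 6 h (log2 0.55, adjusted p = 0.0430). Nqo1 (log2 1.26, adjusted p = 0.521), Slc7a11 (log2 0.91) and Hmox1 (log2 0.37) were not called at 6 h. At 1 h edgeR called all of these targets, with log2 fold changes from 1.74 to 2.33. The intervals were narrow for the abundant genes: the log2 SFN difference of Id1 lay between −0.29 and 0.30 at 1 h and between −0.25 and 0.33 at 6 h, and that of Smad7 between −0.46 and 0.22 and between −0.07 and 0.61. For Msx1 they were wide, −0.51 to 0.98 at 1 h and −1.16 to 0.34 at 6 h. The change in the SFN effect was itself tested. Between isosmotic cells and 6 h it was called for Smad7 (log2 1.40, SE 0.23, adjusted p = 0.00632), 1 of the 8 genes tested, with 0.759% of all genes called. That call was lost without DMSO 6 h replicate 2 (adjusted p = 0.0595) or SFN isosmotic replicate 2 (adjusted p = 0.0510). For Id1 the change was 0.74 (SE 0.19, adjusted p = 0.121) at 6 h and 0.71 (SE 0.19, adjusted p = 0.188) at 1 h. At 1 h 0 of 8 genes were called by edgeR beside 0.559% of all genes (0.487% higher and 0.0718% lower). In that test 3 of the 8 had an unadjusted p under 0.05, beside 1487 of all 19509 genes. DESeq2 called Id1 and Smad7 at both times, beside 1.38% of all genes at 1 h and 1.81% at 6 h.

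**Figure D3:**
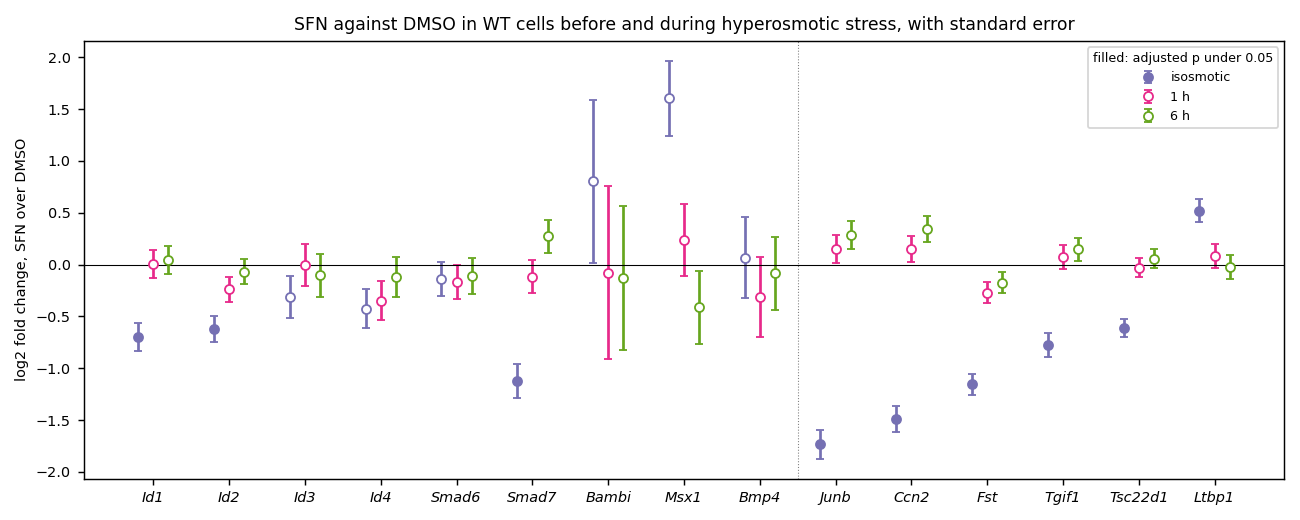
Log2 fold change of SFN over DMSO in WT cells for 9 of the genes, left of the dotted line, and for the 6 other pathway genes called in isosmotic cells, right of it. Bars are standard errors, purple marks isosmotic cells, pink 1 h and green 6 h, and filled symbols were called. Msx1 in isosmotic cells is drawn without a test. In isosmotic cells Id1, Id2, Smad7 and 5 of the other genes lie below 0 and Ltbp1 above 0, and no value was called at 1 h or 6 h.

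The third comparison set Nrf2-/- against WT cells, both with SFN. In isosmotic cells 6 of the 8 genes tested were called, all lower in Nrf2-/- cells, against 34.1% of all genes called and 18.4% in that direction. Id4 and Bambi reached the level of the filter on low counts only in WT libraries, and Bmp4 reached it in no pair of Nrf2-/- libraries. The direction of these genes between genotypes was fixed and their values are a description. That leaves the calls of Id1, Id3 and Smad6. Id4 had 610 and 801 counts, or 16.4 and 14.8 CPM, in the WT and 0 counts in both Nrf2-/- libraries, where 0 counts allow at most 0.0853 and 0.0806 CPM. That makes Id4 at least 188-fold lower, taking 3 counts per library as the floor. Id1 was at 167 and 146 against 53.3 and 53.0 CPM (log2 −1.56, SE 0.14, adjusted p = 6.45e-07). Id3 was at 146 and 140 against 53.6 and 57.2 CPM (log2 −1.36, SE 0.21, adjusted p = 0.000149). None of these libraries overlapped. Smad6 was at 36.3 and 33.2 against 16.5 and 12.1 CPM (log2 −1.28, SE 0.17, adjusted p = 3.54e-05).

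The scarce genes are given as a description, since Msx1 was chosen with these WT libraries and the filter fixed the direction of Bambi and Bmp4. Bmp4 had 37 and 64 counts in WT and 14 and 7 in Nrf2-/- cells (log2 −1.90, SE 0.46, and −2.52 without Nrf2-/- isosmotic replicate 1). Its call is no separate evidence and was lost without Nrf2-/- isosmotic replicate 2. Bambi had 30 and 18 counts in WT and 0 in both Nrf2-/- libraries, at least 6.86-fold lower. Msx1 was at 2.95 and 1.70 CPM in WT and at 0.711 and 0.698 CPM in Nrf2-/- cells, close to the 0.834 and 0.685 CPM of WT cells with DMSO. Id2 and Smad7, which SFN lowered in the WT, were not called: Id2 was at 175 ± 19.0 against 152 ± 13.99 CPM (interval of the log2 difference −0.46 to 0.06) and Smad7 at 59.6 ± 3.5003 against 69.4 ± 0.909 CPM (interval −0.12 to 0.56).

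At 1 h all 9 genes tested were called lower in Nrf2-/- cells, against 31.5% of all genes called and 16.2% lower. Id4, Bambi and Bmp4 were again of fixed direction, which leaves Id1, Id2, Id3, Smad6, Smad7 and Msx1. Bmp4 had 51 and 41 counts in WT and 4 and 2 in Nrf2-/- cells (log2 −3.73, SE 0.57), given as a description. Id4 had 566 and 645 counts against 2 and 9, and Bambi 20 and 4 counts against 0 and 0, at least 3.63-fold lower. That bound is carried by WT SFN 1 h replicate 1, since the 4 counts of replicate 2 lie next to the floor of 3 counts. Smad7 was at 98.7 and 103 CPM against 61.4 and 37.6 CPM (log2 −1.03, SE 0.16, adjusted p = 0.000196), and Id2 at 216 and 222 against 168 and 130 CPM (log2 −0.55, SE 0.12, adjusted p = 0.00291). Msx1, here in libraries that played no part in its choice, was at 1.64 and 1.97 CPM in WT and 0.935 and 0.519 CPM in Nrf2-/- cells (log2 −1.31, SE 0.37, adjusted p = 0.0148). Replicate 1 of the Nrf2-/- libraries was above replicate 2 for Id1, Id2, Id3, Smad6, Smad7, Msx1 and Bmp4, with 64.1 and 32.6 CPM for Id3. The Msx1 call was lost without Nrf2-/- 1 h replicate 2 (adjusted p = 0.138) or WT SFN 1 h replicate 2 (adjusted p = 0.0983), and the Bambi call without WT SFN 1 h replicate 1 (adjusted p = 0.142). When only the 4 libraries compared were fitted, 4 genes were called beside 10.1% of all genes, Bambi was not tested, and Id3, Msx1, Id2 and Smad7 had adjusted p = 0.0967, 0.126, 0.141 and 0.0821. In the test of whether the 1 h response differed between genotypes, edgeR called 0 of 8 genes and 0.123% of all genes, 0.0615% higher and 0.0615% lower. Bambi was among the 8, but with 0 counts in all Nrf2-/- libraries its difference could not be estimated. An unadjusted p under 0.05 was reached by 3 of the 8, beside 1433 of all 19509 genes. Smad7 was the closest, higher at 1 h in both WT and lower in both Nrf2-/- libraries (log2 difference −1.25, SE 0.23, adjusted p = 0.0535), and DESeq2 called it beside 0.651% of all genes.

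Other genes of the pathway were read from lists of 83 genes by role, of which 74 were tested. In WT isosmotic cells SFN changed 6 of the 74, or 8.11% beside 2.84% of all genes, 1 higher and 5 lower. The 5 were Junb, an AP-1 subunit, from 517 and 534 to 171 and 145 CPM (log2 −1.73, SE 0.14, adjusted p = 6.98e-06), Ccn2, the matricellular target also called CTGF, from 785 and 855 to 260 and 323 CPM (log2 −1.49, SE 0.13), Fst, the activin antagonist follistatin (log2 −1.16, SE 0.10), the corepressor Tgif1 (log2 −0.78, SE 0.11) and Tsc22d1 (log2 −0.61, SE 0.09). Ltbp1, which holds latent TGF-beta in the matrix, rose by 0.52 (SE 0.11). None of the ligands, receptors, signalling Smads or E proteins was called. At 1 h and 6 h edgeR called 0 of the 74 for SFN, beside 0.0923% and 0.041% of all genes. A missing call does not show a missing change. Tgfb2, a TGF-beta ligand, was lower with SFN without overlap at each time. It was at 2.87 to 4.21 against 7.10 to 7.46 CPM in isosmotic cells, and at 14.7 to 15.1 against 18.6 to 20.3 CPM at 6 h. Bmp6 was higher with SFN without overlap in isosmotic cells (12.9 to 15.3 against 10.4 to 11.5 CPM) and lower at 6 h.

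At 1 h with DMSO, 12 of the 74 were called, or 16.2% beside 11.2% of all genes, 4 higher and 8 lower. Grem1, a secreted BMP antagonist, had 2 and 4 counts before and 104 and 68 at 1 h. It passed the filter on low counts mainly through the 1 h libraries where it is high, so its call is no separate evidence. Smad9, a BMP Smad, rose from 4.07 and 4.05 to 8.30 and 7.10 CPM (log2 0.92, SE 0.21, adjusted p = 0.0116), while with SFN it was at 5.15 and 5.69 before and 5.84 and 4.82 CPM at 1 h (log2 −0.02, SE 0.21). The difference between the pretreatments was not called (log2 −0.95, SE 0.30, adjusted p = 0.328). In Nrf2-/- cells with SFN Smad9 was called higher at 1 h (log2 0.96, SE 0.22, adjusted p = 0.0141). Also called higher with DMSO were the BMP type I receptor gene Acvr1 (log2 0.47, SE 0.10) and the antiproliferative gene Tob1 (log2 0.71, SE 0.14). Junb fell by 2.13, Ccn2 by 1.57, Tgif1 by 0.96 and Skil by 0.67 on the log2 scale. No ligand was among the called genes. With SFN 5 of the 74 were called at 1 h, 6.76% beside 9.52% of all genes, and in Nrf2-/- cells 6, or 8.11% beside 7.17%.

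At 6 h with DMSO, 44 of the 74 genes were called, or 59.5% beside 45.9% of all genes, 27 higher and 17 lower, and with SFN 40 of the 74, or 54.1% beside 47.6%, 29 higher and 11 lower. Of 15 ligands 5 were higher and 5 lower. Inhba, which encodes the activin A subunit, rose from 45.0 and 36.2 to 218 and 199 CPM (log2 2.36, SE 0.20, adjusted p = 4.33e-07), and Bmp6 rose by 1.30 (SE 0.17), while Tgfb3 fell from 6.41 and 4.55 to 1.65 and 1.79 CPM (log2 −1.67, SE 0.22) and Bmp7 fell by 0.96 (SE 0.31). Bmp2, a BMP ligand, had 41 and 53 counts before and 6 and 5 at 6 h (log2 −2.69, SE 0.77, adjusted p = 0.0127). With SFN Bmp2 had 2 and 12 counts before and 6 and 2 at 6 h, with overlapping libraries (adjusted p = 0.832), and the 2 SFN isosmotic libraries lay below both DMSO ones without a call (adjusted p = 0.0706). Inha, the inhibin alpha subunit gene, had 11 and 18 counts before and 0 in both libraries at 6 h, and its direction was fixed, since it passed the filter through isosmotic libraries alone. Smad9 fell from 4.07 and 4.05 to 1.30 and 1.48 CPM with DMSO (log2 −1.54, SE 0.24, adjusted p = 9.31e-05) and from 5.15 and 5.69 to 0.793 and 0.561 CPM with SFN (log2 −2.99, SE 0.26, adjusted p = 3.84e-07). Of 13 receptors 5 were higher and 2 lower: Bmpr1b, a BMP type I receptor, had 0 counts in both isosmotic libraries and 76 and 68 at 6 h, and it passed the filter through the 6 h libraries alone, so its direction was fixed. Acvr1 rose by 1.23 (SE 0.11). The 2 lower receptors were Acvr1b, an activin type I receptor, from 21.1 and 22.0 to 7.85 and 8.06 CPM (log2 −1.44, SE 0.15), and Tgfbr2, the TGF-beta type II receptor, from 160 and 145 to 94.5 and 90.0 CPM (log2 −0.73, SE 0.13). Lefty1, an antagonist of nodal signalling, had 2 and 0 counts before and 18 and 5 at 6 h, and it passed the filter only through stressed libraries, so its call is no separate evidence. Among targets outside the 10 genes, Dlx3, a homeobox gene, had 25 and 4 counts before and 104 and 59 at 6 h (log2 2.83, SE 0.74). The 4 counts lie next to the floor of 3 counts, and this isosmotic pair did not reach the filter's level in both libraries, while the 6 h pair did. Its call is no separate evidence. Hey1 rose from 2.24 and 1.48 to 11.6 and 10.5 CPM (log2 2.57, SE 0.27), Atoh8 fell from 10.6 and 12.7 to 2.81 and 2.53 CPM (log2 −2.12, SE 0.24) and Ccn2 fell by 2.05 (SE 0.13). Of the 3 E protein genes, the partners of Id proteins, Tcf12 fell by 0.46 (SE 0.14) and Tcf3 by 0.23 (SE 0.09), and Tcf4 was not called (log2 0.30, SE 0.13, adjusted p = 0.0666).

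In Nrf2-/- isosmotic cells 42 of the 74 genes were called, or 56.8% beside 34.1% of all genes, 23 higher and 19 lower. Of 15 ligands 3 were higher and 7 lower, with a median log2 fold change of −0.84. Bmp6 went from 570 and 698 counts in WT to 2 and 0, Bmp7 from 379 and 508 to 0 and 0, and Inhbb, an activin subunit, from 278 and 432 to 0 and 0. Inha had 14 and 27 counts in WT and 0 and 0 in Nrf2-/- cells, and Chrdl1, a secreted BMP antagonist, 42 and 72 against 0 and 0. These genes were all called lower. Inha, Inhbb, Bmp7, Bmp2 and Chrdl1 reached the filter's level only in WT libraries, and Bmp6 reached it in no pair of Nrf2-/- libraries. Bmp5, a BMP ligand with 0 counts in every WT library and 14 and 10 in the Nrf2-/- isosmotic ones, reached it only in Nrf2-/- libraries. The directions of these genes were fixed by the filter, and all but Chrdl1 are among the 10 called ligands. Inhba was higher, at 144 and 156 CPM against 30.8 and 36.4 CPM (log2 2.16, SE 0.20, adjusted p = 9.57e-07), as were Tgfb3 (log2 2.58, SE 0.20) and Ltbp1 (log2 2.72, SE 0.12). Of the 6 signalling Smads 1 was higher and none lower. Smad1 and Smad5, which carry the BMP signal, differed by 0.04 (SE 0.12) and 0.08 (SE 0.17) on the log2 scale, and Bmpr2, the BMP type II receptor, was higher by 1.08 (SE 0.31, adjusted p = 0.0185).

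**Figure D4:**
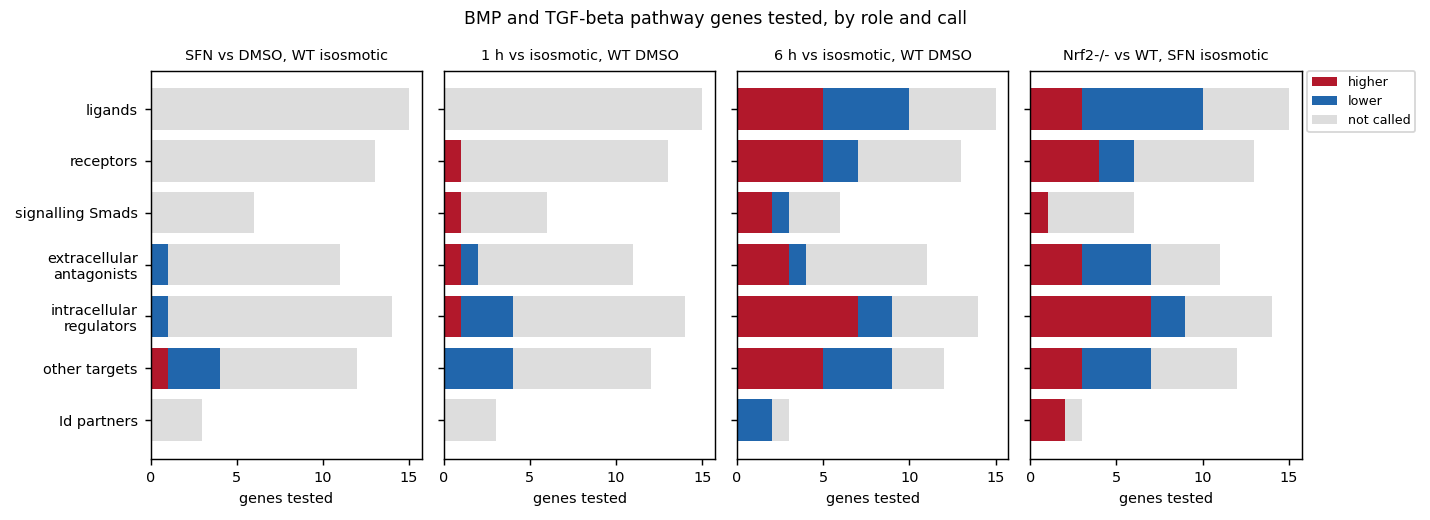
Number of pathway genes tested in each role, split into genes called higher (red), called lower (blue) and not called (grey), in 4 comparisons, with the number of genes on a linear axis from 0. With SFN in isosmotic cells 6 of 74 were called, at 1 h 12, at 6 h 44 and in Nrf2-/- cells 42, and ligands were called in the last 2 comparisons and not in the first 2.

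Among the genes themselves, 2 pairs had like patterns over the 8 groups. The root mean square distance of centred log2 group means was 0.185 for Id3 and Smad6 and 0.222 for Id2 and Smad7, and the other pairs ranged upward from 0.510 for Bambi and Bmp4. Id4, with 0 counts in Nrf2-/- isosmotic cells, was at least 2.04 from every other gene. Id1 had a range of 3.797 on the log2 scale between its highest group, WT DMSO isosmotic, and its lowest, Nrf2-/- at 1 h. Of 12834 genes with a mean of at least 1 CPM, the 5 closest to Msx1 over the 8 groups were Otx1 at 0.221, Pgam2 at 0.263, Itga10 at 0.290, Hhex at 0.291 and Galr2 at 0.307. The 5 closest to Id1 were Mir22hg at 0.277, Trim6 at 0.483, Mirt1 at 0.510, Clcf1 at 0.515 and Btg2 at 0.520. Otx1 and Hhex are homeobox genes, as Msx1 is, and Btg2 is an antiproliferative gene. These distances are descriptions over 8 group means and carry no test.

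Markers of other cell types were higher in the 6 h libraries. The summed leukocyte list of 4 genes was at 2.69 and 3.18 CPM in WT DMSO isosmotic cells, with 1 gene at 1 CPM or more (Cd68), and at 13.4 and 9.29 CPM at 6 h, with 3 of 4. Its most abundant gene at 6 h was Ptprc, the leukocyte antigen CD45, with 5.68 and 4.08 CPM, and at 6 h with SFN the sum was 11.2 and 10.9 CPM. The endothelial list of 4 genes went from 0.0476 and 0.177 to 4.06 and 4.38 CPM with DMSO, led by Pecam1 with 3.56 and 3.06 CPM, and Cdh5, its defining cadherin, had 0 counts in both isosmotic libraries and stood at 0.174 and 0.247 CPM at 6 h. The fibroblast list of 5 genes, led by Col1a1, was at 3.19 and 2.81 CPM before and 6.00 and 7.47 CPM at 6 h, with 1 gene at 1 CPM or more in each. The proximal tubule list of 4 genes, led by Lrp2 or Cubn, went from 11.5 and 9.06 to 27.5 and 21.2 CPM. The part of these genes in the 6 h results was not tested. In isosmotic cells with SFN the Nrf2-/- libraries had lower fibroblast sums (1.71 and 2.12 against 4.48 and 5.08 CPM in WT) and proximal tubule sums (3.33 and 2.50 against 9.71 and 12.7 CPM). They had higher epithelial sums (3307 and 3051 against 2207 and 1968 CPM) and collecting duct sums (103 and 94.2 against 62.1 and 60.3 CPM), the latter led by Tfcp2l1 (66.4 and 59.0 CPM) in Nrf2-/- and by Hoxb7 in WT cells. The number of collecting duct genes at 1 CPM or more was lower, 2 of 10 in Nrf2-/- against 4 in WT libraries, with Scnn1a and Gata3 below 1 CPM. The part of these markers in the genotype results was not tested. The leukocyte, endothelial, fibroblast and proximal tubule sums were all far below that of the epithelial list, which had 6 of 6 genes at 1 CPM or more in every library.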

How the data were processed

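RNA-seq counts of mIMCD3 cells were read for 16 libraries, 2 in each of 8 groups. The authors deposited raw read counts per gene symbol, 1 library at a time, without normalization. Their methods name Hisat2, Samtools and FeatureCounts with mm10, and the submitters' processing notes list Bowtie2, SAMtools, featureCounts and mm10. Versions, annotation and strand setting are not given in the sources used here. Total counts per library ranged from 34484296 to 50774875. The labels call the cells primary in 1 place and mIMCD3 in all others. Blank gene names were dropped (2 lines in replicate 1 of WT with DMSO and 3 in replicate 1 of Nrf2-/-, both isosmotic). Of values between 1 and 10, 58.0% to 68.5% were even. Whether each is 1 fragment was not tested, and floors of 3 counts cover counting error only.

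Genes were tested in edgeR by its quasi-likelihood method, robust form (edgeR 4.0.16, limma 3.58.1, R 4.3.3) with TMM factors and filterByExpr, with 1 coefficient per group and Benjamini-Hochberg adjustment over 19509 genes at 0.05. SE is the size of the log2 fold change divided by the root of F. Across 15 comparisons Msx1 was left untested in 9 that hold WT isosmotic libraries. The genes and lists were chosen with earlier results of these data known. All 10 genes, 5 Nrf2 label checks and, of the pathway lists, up to 5 called genes per direction with the largest fold change were named. At 6 h Acvr1, Acvr1b, Tgfbr2, Smad9, Bmp6, Bmp7, Tcf3, Tcf4 and Tcf12, and in Nrf2-/- cells Bmpr2, Smad1 and Smad5, fall outside this rule and were chosen after their values were seen. The same holds for Tgfb2 and Bmp6 in the SFN comparisons. Some genes that the rule names are not reported here. Likeness was the root mean square distance of centred log2 CPM group means (prior count 2). Exact permutation of 2 against 2 libraries cannot go below p = 0.333 and was not used. FPKM used exon lengths of GENCODE M21. The scripts were tested on simulated data. Alternatives were RLE size factors, DESeq2 1.42.0, other filters, fewer libraries, a replicate block and leaving out each library. After the data were seen, a fit without both Nrf2-/- 1 h libraries was added.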

Additional observations from a re-analysis of the deposited data

Results flagged for a closer look

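The effect of SFN differed between isosmotic and stressed WT cells for several genes of the pathway, by edgeR's test of the difference itself with Benjamini-Hochberg adjustment over all genes. Of the 74 pathway genes 4 were called at 1 h (5.41% beside 0.559% of all genes) and 5 at 6 h (6.76% beside 0.759%), and Smad7 was called at 6 h besides. Between isosmotic cells and 6 h the log2 SFN effect moved up by 1.4 for the inhibitory Smad gene Smad7 (adjusted p = 0.00632), by 2.02 for Junb (adjusted p = 9.10e-05), by 1.84 for Ccn2 (adjusted p = 9.10e-05), by 0.982 for Fst (adjusted p = 0.00313), by 0.922 for Tgif1 (adjusted p = 0.0115) and by 0.67 for Tsc22d1 (adjusted p = 0.0207). Between isosmotic cells and 1 h it moved up by 1.88 for Junb (adjusted p = 0.000316), by 1.65 for Ccn2 (adjusted p = 0.000447), by 0.887 for Fst (adjusted p = 0.00902) and by 0.851 for Tgif1 (adjusted p = 0.0288). In each of these genes both SFN libraries were below both DMSO libraries in isosmotic cells, and no SFN difference was called at 1 h or 6 h. The isosmotic libraries are shared by both tests. Groups held 2 libraries each, so no group could be examined for a library far from the rest.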

How the results depend on the processing

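None of the 51 member calls changed direction under any alternative run, and results that were not called were not followed gene by gene. The 51 include the genotype calls of Id4, Bambi and Bmp4, whose direction was fixed by the filter. They also include Id4 at 1 h in Nrf2-/- cells, which could only rise from 0 counts. That these calls held is no separate evidence. All 51 held with DESeq2, with no filter and with the replicate block, which left each count of member calls as it was (3 for SFN in isosmotic cells). Samples that share a replicate number did not deviate together (28 pairs of groups, r from −0.0794 to 0.123), so the numbers are not taken as pairs. Numbers follow the sample titles, and the count headers of WT SFN isosmotic replicates 1 and 2 carry 2 and 3. With RLE size factors the genotype difference at 1 h had 1 called gene, beside 0.128% of all genes, and Id4 at 6 h with DMSO was lost. DESeq2 called 2 genes at 1 h with DMSO (14.3% of all genes) and 1 in the genotype difference (0.651%). In the change of the SFN effect it called 2 at 1 h (1.38%) and 2 at 6 h (1.81%). Without a filter each of these 4 counts was 2, beside 7.93%, 0.458%, 0.735% and 0.887% of all genes. With at least 10 counts in every library, scarce genes were not tested. Then 1 was called at 1 h in Nrf2-/- cells (2.42% of all genes), 4 at 6 h with DMSO (51%) and 3 in Nrf2-/- isosmotic cells (45.9%). Fits of the compared libraries alone called 2 for SFN at 1 h, 2 at 1 h with DMSO, 4 at 1 h with SFN, 0 at 1 h in Nrf2-/- cells (Id1 adjusted p = 0.0653), 4 for the genotype at 1 h, and 2 and 3 for the change of the SFN effect at 1 h and 6 h. The 12 WT libraries alone gave 5 for SFN in isosmotic cells, 3 and 4 at 1 h with DMSO and SFN, and 3 and 3 for the change of the SFN effect. Without both Nrf2-/- 1 h libraries, an alternative chosen after seeing the data, these were 5, 3, 4, 2 and 3.

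Leaving out 1 library at a time gave 1 to 5 called genes for SFN in isosmotic cells, 1 to 3, 1 to 4 and 1 to 5 at 1 h with DMSO, with SFN and in Nrf2-/- cells, 0 to 2 and 0 to 3 for the change of the SFN effect at 1 h and 6 h, and 0 to 4 for the genotype difference. The share of all genes called in those runs went from 0.804% to 13% for SFN in isosmotic cells, from 4.45% to 20.3%, 3.33% to 15.7% and 2.53% to 23.9% at 1 h, from 0.226% to 2.76% and 0.325% to 3.6% for the change of the SFN effect, and from 0.0377% to 9.75% for the genotype difference. The cause was not tested. Over all genes, SFN in isosmotic cells changed 555 genes, with DESeq2 1143 (576 higher and 567 lower, against 212 and 343), without a filter 1103, with the compared libraries 1097 and with 12 WT libraries 2875. In those 4 fits SFN at 1 h went from 18 to 49, 42, 809 and 101, SFN at 6 h from 8 to 21, 16, 106 and 46, the change of the SFN effect at 1 h from 109 to 270, 257, 391 and 585 and at 6 h from 148 to 353, 310, 456 and 803. SFN at 6 h had 4 with RLE factors and 2 with the replicate block. At 1 h 2186 genes were called with DMSO, 654 with at least 10 counts, 3589 in the compared and 4334 in the 12 WT libraries, and with SFN 1857, 535, 2567 and 3466. In Nrf2-/- cells 1399 were called at 1 h, 2130 without a filter, 295 with at least 10 counts and 7 in the compared libraries, and the genotype at 1 h had 6154 and 1651 in the compared libraries. The genotype difference had 24, with DESeq2 127, without a filter 160, with at least 10 counts 10 and in the compared libraries 0. Without both Nrf2-/- 1 h libraries the SFN counts were 2786, 92 and 41, the 1 h counts 4253 with DMSO and 3353 with SFN, and the change of the SFN effect 582 and 760. Bambi and Msx1 had at most 81 and 110 counts in a library, and the size of change that could be detected in them was not tested.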
